A study of Mus musculus with 2 samples.

Results

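Skeletal muscle transcripts were present in RNA of the dissected neural tube, and 37 genes of muscle differentiation and contraction are described here, of 43346 mouse genes measured. The members were listed by symbol for their function and matched by Ensembl identifier, and all 37 were found in both libraries. They comprise 5 myogenic transcription factors, 5 sarcomere genes of embryonic muscle, 14 sarcomere genes of mature muscle (6 of fast and 8 of slow or cardiac type), 7 genes of the sarcomere scaffold, 4 membrane and receptor genes and 2 enzymes. In both libraries 30 of the 37 reached 1 TPM, and 4 (Myf6, Cav3, Chrnd and Ckm) stayed below it in both. Of all 43346 genes, 15181 reached 1 TPM in both libraries and 27080 stayed below it in both. TPM is a level corrected for transcript length and sequencing depth. The members together held 0.0704% of all TPM in replicate 1 and 0.0509% in replicate 2.

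Skeletal muscle of the trunk and limbs forms from the somites, blocks of mesoderm that lie directly beside the neural tube. Progenitors that express Pax3 and Pax7 switch on the MyoD family of basic helix-loop-helix factors (Myf5, Myod1, Myog and Myf6), which bind E-box sequences, often together with MEF2 factors, and turn on the genes of the contractile apparatus. The sarcomere is built from actin thin filaments carrying troponin, myosin thick filaments, and giant scaffold proteins. Most of its components exist as embryonic, fast, slow and cardiac isoforms encoded by separate genes, and embryonic muscle uses several isoforms that the adult keeps only in the heart.

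Both libraries form 1 group: neural tube of B6NCrl embryos at embryonic day 12.5, without treatment or genetic change named in the labels, male and female embryos pooled. Replicate 1 drew on 120 embryos and replicate 2 on 88, both under the same donor identifier, and each library used 10 ng of RNA longer than 200 nucleotides. The study therefore gives each level in 2 pools and holds no treated, older or second tissue, so no p-value can be given. Expected counts on mouse genes summed to 31610805 in replicate 1 and 33530172 in replicate 2, and counts of genes differed between the pools by more than sampling noise (chi-square per degree of freedom 7.35 over 17642 genes). All 12 genes listed for the neural tube were detected in both libraries, with a list median of 29.3 ± 0.944 TPM (SD, n = 2). They were led by the neuronal tubulin Tubb3 (1004 and 1030 TPM), Elavl4 (308 and 366 TPM) and Isl1 (110 and 156 TPM). Isl1 is also a gene of sensory neurons, so these levels need not be those of the neural tube alone. The muscle genes are thus a minor component beside the labelled tissue, and whether cells of other types were carried along in dissection is not recorded in the labels.

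Promoters of 4 members are shown: Myog, the highest factor, Actc1 and Acta1, the highest members by mean TPM, and Chrng. The TPM of Chrng was higher in replicate 2 when most members were lower, a difference within counting error. Each promoter is the stretch of 250 bases before the RefSeq start (GRCm38.p6), written 5′ to 3′ on the gene's strand. Capitals mark E-boxes (CANNTG, the same on both strands) and CArG boxes, the binding letters of serum response factor. The Myog window is chr1:134289754-134290003 on the plus strand, that of Actc1 chr2:114052876-114053125 on the minus strand, that of Acta1 chr8:123894776-123895025 on the minus strand and that of Chrng chr1:87205561-87205810 on the plus strand. RefSeq and GENCODE M21 differ in some starts. The Myog window runs past the GENCODE start of the gene, so its last E-box lies after that start. The Actc1 and Chrng windows lie inside the GENCODE gene bounds, which an alternative transcript extends. That of Actc1 runs into the opening bases of the leading transcript, and that of Chrng ends directly before its own.
Myog: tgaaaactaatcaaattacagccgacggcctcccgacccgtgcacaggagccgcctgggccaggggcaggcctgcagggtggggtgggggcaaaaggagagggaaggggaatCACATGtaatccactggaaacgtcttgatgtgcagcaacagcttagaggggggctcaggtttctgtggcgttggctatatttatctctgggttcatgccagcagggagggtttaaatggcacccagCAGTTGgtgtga
Actc1: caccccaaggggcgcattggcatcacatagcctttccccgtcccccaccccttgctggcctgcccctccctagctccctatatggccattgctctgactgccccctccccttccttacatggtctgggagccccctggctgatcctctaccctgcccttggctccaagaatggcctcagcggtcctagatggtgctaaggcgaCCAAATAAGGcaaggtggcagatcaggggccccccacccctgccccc
Acta1: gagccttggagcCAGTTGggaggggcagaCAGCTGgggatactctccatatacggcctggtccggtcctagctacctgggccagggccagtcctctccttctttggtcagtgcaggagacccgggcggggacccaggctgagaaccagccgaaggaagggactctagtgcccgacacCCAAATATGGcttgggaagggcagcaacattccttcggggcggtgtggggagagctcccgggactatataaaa
Chrng: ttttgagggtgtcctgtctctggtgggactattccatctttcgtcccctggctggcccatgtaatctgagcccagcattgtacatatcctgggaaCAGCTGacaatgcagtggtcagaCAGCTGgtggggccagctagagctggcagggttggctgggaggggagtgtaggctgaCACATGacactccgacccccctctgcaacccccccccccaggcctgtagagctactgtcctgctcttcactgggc

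These windows held 2 E-boxes for Myog, 0 for Actc1, 2 for Acta1 and 3 for Chrng, and 1 CArG box each for Actc1 and Acta1. RefSeq windows were matched for 30 of the 37 members, some with several starts, which gave 36 windows. Of these, 32 (88.9%) held at least 1 E-box, against 66.2% of 32851 windows of the same length over all genes. The form CAGCTG, counted also within the E-boxes, stood in 15 member windows (41.7%) against 13.0% of all windows. A CArG box stood in 4 member windows (11.1%), those of Acta1, Actc1, Myl3 and Myom1, against 1.47% of all. The MEF2 box was found in 3 member windows (8.33%) against 2.92%, and TATAAA, which can overlap it, in 9 (25%) against 12.4%. All motifs were searched on both strands, and several windows of a gene can share bases. A match shows only that the letters are there.

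Myog, the factor that drives terminal differentiation of myoblasts, was the most abundant myogenic factor. It stood at 36.92 TPM in replicate 1 and 29.56 TPM in replicate 2 (chromosome 1, 134289989 to 134292548, GRCm38, ENSMUSG00000026459.5). Myod1, a determination factor, stood at 11.17 and 8.89 TPM. Myf5, the earliest factor of the family to appear in the somite, stood at 5.58 and 2.66 TPM, from 220 and 109 expected counts. Myf6, which is used mainly in later muscle fibres, was the lowest, at 0.88 and 0.21 TPM from 20 and 5 counts. In both pools the order was therefore Myog, Myod1, Myf5 and Myf6, and no value of a lower factor reached one of a higher factor. Myog held 67.7% and 71.5% of the summed TPM of these 4 genes, Myod1 20.5% and 21.5%, Myf5 10.2% and 6.44%, and Myf6 1.61% and 0.51%. Myf5 and Myf6 are neighbours on chromosome 10, on the same strand with 6.72 kb between them, and their mean levels differed 7.56-fold. Mef2c, which works with the MyoD family but is also expressed in neurons and heart, stood at 11.66 and 11.53 TPM, and of the members above 1 TPM its TPM ratio was nearest to 1.

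Among the embryonic sarcomere genes the highest was Actc1, the cardiac alpha-actin that embryonic skeletal muscle also uses. It stood at 130.56 and 87.96 TPM, from 3560 and 2495 counts, and was the highest of all 37 members. Myl4, the embryonic and atrial essential light chain, stood at 18.02 and 11.45 TPM, and Tnnt2, the cardiac troponin T also used by embryonic skeletal muscle, at 15.98 and 11.05 TPM. The embryonic myosin heavy chain Myh3 stood at 15.87 and 14.13 TPM and the perinatal chain Myh8 at 1.70 and 1.30 TPM. All 5 were detected in both libraries, and each was lower in replicate 2.

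Fast-fibre sarcomere genes were among the most abundant members. Acta1, the skeletal alpha-actin of adult muscle, stood at 64.0 and 46.12 TPM (1698 and 1270 counts). Mylpf, the fast regulatory light chain, stood at 53.65 and 41.92 TPM, and Myl1, the fast essential light chain, at 53.21 and 39.46 TPM. The fast troponin C gene Tnnc2 stood at 30.05 and 21.69 TPM. The other fast troponins were lower, Tnnt3 at 7.18 and 4.75 TPM and Tnni2 at 3.48 and 2.75 TPM, the latter from 46 and 36 counts. The fast list thus split into 4 genes above 20 TPM and 2 below 8 TPM in both pools.

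Slow and cardiac sarcomere genes spread more widely. The slow troponins Tnnt1 (61.88 and 48.10 TPM), Tnnc1 (51.12 and 36.58 TPM; also the cardiac troponin C) and Tnni1 (34.10 and 22.65 TPM) overlapped the range of the 4 leading fast genes. The remaining 5, which are genes of slow fibres and of the heart or of the heart alone, all lay below 8 TPM. Myh7, the slow and ventricular myosin heavy chain, stood at 6.38 and 2.93 TPM, and Myh6, the atrial chain, at 1.2 and 0.96 TPM. The ventricular light chains Myl2 (4.92 and 0.66 TPM; 56 and 5 counts) and Myl3 (3.16 and 0.75 TPM; 45 and 13 counts) were, like Myh6, above 1 TPM in replicate 1 only. Tnni3, the cardiac troponin I, stood at 2.28 and 2.97 TPM from 31 and 27 counts, and its higher value in replicate 2 turned to 1.44 and 1.11 TPM when only its protein-coding transcripts were summed. An exon of Tnni3 also overlaps the gene Dnaaf3 on the same strand.

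**Figure D1:**
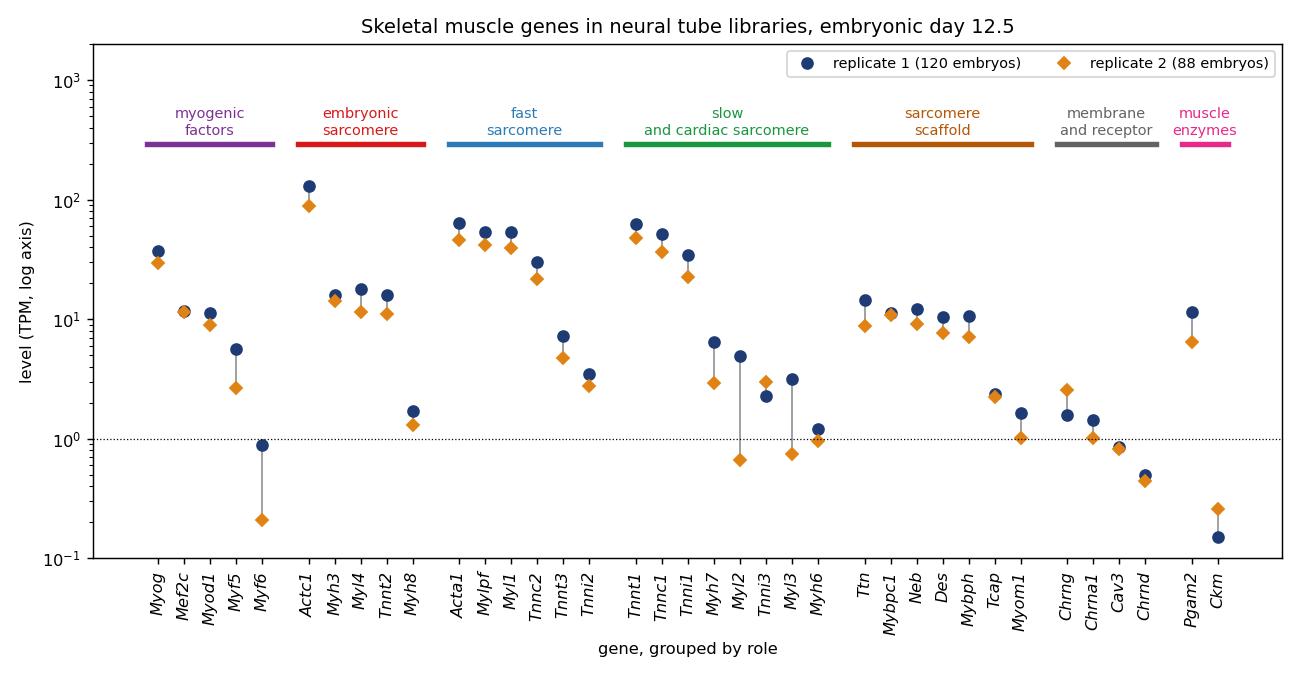
Levels of the 37 members in TPM (log axis) in replicate 1 (circles) and replicate 2 (diamonds), grouped by role and ordered within a role by mean level; the dotted line is 1 TPM. Actc1 is the highest member in both pools, Myf6 and Ckm are among the lowest, and Myl2 and Myl3 show wide gaps between the pools.

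The question that the choice of members sets is how the factors compare with the embryonic and mature sarcomere genes. The median myogenic factor stood at 10.0 ± 1.61 TPM (SD, n = 2; 11.17 and 8.89 TPM), the median embryonic sarcomere gene at 13.7 ± 3.20 TPM (15.98 and 11.45 TPM) and the median mature sarcomere gene at 15.9 ± 3.81 TPM (18.615 and 13.22 TPM). On the log2(TPM + 1) scale the embryonic median was above that of the factors by 0.48 in replicate 1 and 0.33 in replicate 2 (0.41 ± 0.10), and the mature median by 0.39 and 0.21 (0.30 ± 0.13). Embryonic minus mature was 0.09 and 0.12 (0.11 ± 0.02) for the log2(TPM + 1) medians, in which the mature median is the mean of its 2 middle genes. The TPM medians given above ran the other way in both pools, with the mature median higher, so the sign depends on the scale. These differences are small beside the range within each list, which in replicate 1 ran from 0.88 to 36.92 TPM for the factors, from 1.70 to 130.56 TPM for embryonic and from 1.2 to 64.0 TPM for mature genes.

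The order of the lists rested on how they were drawn. With Tnni1 and Tnnc1, which embryonic muscle also expresses, counted as embryonic, the mature median fell below the factors by 0.85 (a difference of -0.85) and the embryonic excess over mature genes became 1.48. In CPM, counts scaled to the library total without correction for length, the embryonic list stood below the factors (-0.26) and below the mature list (-0.37), and with the deposited posterior means the embryonic minus mature difference was -0.026. Without Mef2c, an alternative chosen after the data were seen, the embryonic excess over the factors was 0.99 and the mature excess 0.88. The data therefore give no stable order of embryonic against mature genes.

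Fast genes stood above slow and cardiac genes as lists. The fast median was 36.1 ± 7.82 TPM (41.63 and 30.575 TPM) and the slow and cardiac median 4.30 ± 1.91 TPM (5.65 and 2.95 TPM), a difference of 2.63 and 2.94 on the log2(TPM + 1) scale (2.79 ± 0.22). In CPM it was 0.72. The difference of the lists did not hold for the 3 slow troponins, which stood above their fast partners in every troponin family. The lists also differ in make-up. The slow and cardiac list holds the heavy chains Myh6 and Myh7 and genes of the heart alone, whereas the fast list holds no heavy chain. The adult fast chains Myh1, Myh2 and Myh4, at or below 0.05 TPM, are no members, and the difference with them added was not computed.

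Within each protein family 1 gene held most of the TPM, and it was the same gene in both pools. Troponin T was mainly Tnnt1 (72.8% and 75.3%), with Tnnt2 at 18.8% and 17.3% and the fast Tnnt3 at 8.44% and 7.43%. Troponin I was mainly Tnni1 (85.5% and 79.8%), with Tnni2 at 8.73% and 9.69%. Troponin C was shared by Tnnc1 (62.98% and 62.78%) and Tnnc2 (37.02% and 37.22%). All 3 troponin families were therefore led by the slow gene. In contrast the light chain families were led by fast genes. Myl1 held 71.5% and 76.4% of the essential light chains, followed by Myl4 (24.2% and 22.2%) and Myl3 (4.25% and 1.45%). Mylpf held 91.6% and 98.5% of the regulatory light chains, and Myl2 the remaining 8.40% and 1.55%.

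The sarcomeric myosin heavy chains summed to 25.22 TPM in replicate 1 and 19.4 TPM in replicate 2 and were led by the embryonic gene. Myh3 held 62.9% and 72.8%, Myh7 25.3% and 15.1%, Myh8 6.74% and 6.70% and Myh6 4.76% and 4.95%. The adult fast chains Myh1, Myh2 and Myh4, which are no members, were at or below 0.05 TPM in both libraries, from at most 6.04 counts each. Heavy chain genes are close copies of each other, and the counts of Myh3, Myh8, Myh6 and Myh7 were not whole numbers, so reads were divided among genes by estimation. Counts were whole to within 0.005 in both libraries for 31 of the 37 members. Of the striated actins Actc1 held 67.1% and 65.6% and Acta1 the rest, of a sum of 194.56 and 134.08 TPM. Among all 6 actin genes Actc1 made up only 1.41% and 0.97% and Acta1 0.69% and 0.51%, against 64.7% and 64.3% for the cytoplasmic Actb.

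**Figure D2:**
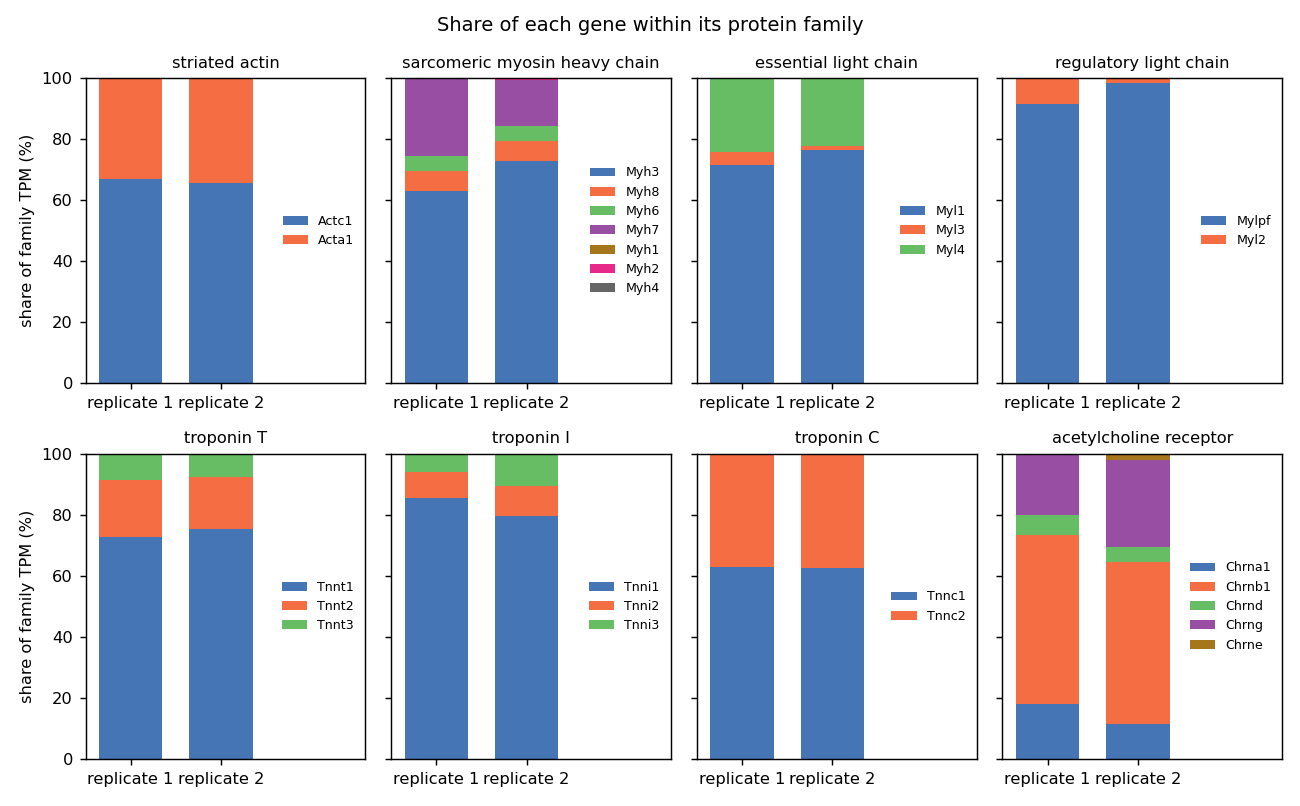
Share of each gene in the summed TPM of its protein family (percent) in replicate 1 and replicate 2, for 8 families. Tnnt1, Tnni1 and Tnnc1 lead the troponins, Myl1 and Mylpf the light chains and Myh3 the heavy chains in both pools, while the share of Myh7 was 25.3% in replicate 1 and 15.1% in replicate 2.

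Some of these genes lie near each other on a chromosome, and the mean levels within such pairs differed to unlike degrees. Pairs of distant genes were not compared. Tnnt1 and Tnni3 lie 1.92 kb apart on chromosome 7, on the same strand, and differed 20.9-fold in mean TPM. Myh6 and Myh7 lie 3.76 kb apart on chromosome 14 and differed 4.31-fold. Tnni1 and Tnnt2, 25.4 kb apart on chromosome 1, differed 2.10-fold, and the fast pair Tnni2 and Tnnt3, 54.4 kb apart on chromosome 7, 1.91-fold. Mybph, 88.8 kb from Myog on chromosome 1, stood 3.74-fold below it.

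The genes of the sarcomere scaffold were all detected, and 5 of the 7 lay within a narrow range. Ttn, which encodes titin, the spring that spans from the Z-disc to the M-line, stood at 14.32 and 8.71 TPM. Neb, whose product nebulin runs along the thin filament, stood at 12.10 and 9.13 TPM. The slow myosin-binding protein C gene Mybpc1 stood at 11.30 and 10.88 TPM, its relative Mybph at 10.70 and 7.09 TPM, and the intermediate filament gene Des at 10.44 and 7.65 TPM. The Z-disc gene Tcap (2.37 and 2.23 TPM) and the M-line gene Myom1 (1.64 and 1.01 TPM) were lower. The scaffold list had a median of 10.7 and 7.65 TPM.

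The levels of the 2 giant genes depend on which transcript carried them. For Ttn, the 6 transcripts longer than 15000 nucleotides (the longest of 106824) held 78.6% and 78.3% of its counts but only 1.23 and 1.03 TPM, and the remaining TPM came from 19 shorter models. For Neb, the non-coding model Neb-204, of 1000 nucleotides, held 78.83% and 76.22% of the TPM. Summed over protein-coding transcripts, Neb stood at 1.72 and 1.31 TPM, and its 2 transcripts longer than 15000 nucleotides at 0.79 and 0.71 TPM. The gene levels of Ttn and Neb are therefore mainly those of short models.

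Membrane and receptor genes were low. The muscle acetylcholine receptor consists of alpha, beta, delta and, before birth, gamma subunits, and the epsilon subunit replaces gamma in the adult. The gamma subunit gene Chrng stood at 1.58 and 2.56 TPM (75 and 101 counts), the alpha gene Chrna1 at 1.43 and 1.02 TPM (122 and 90 counts) and the delta gene Chrnd at 0.50 and 0.44 TPM (28 and 18 counts). The beta gene Chrnb1, which is no member, was higher, at 4.36 and 4.78 TPM and 55.4% and 53.2% of the family. The epsilon gene Chrne had 0 counts in replicate 1, which allows up to 0.0949 CPM, and 2 in replicate 2. The fetal gamma subunit thus exceeded the adult epsilon subunit in both pools. Cav3, the muscle caveolin, stood at 0.85 and 0.82 TPM from 18 counts in each pool.

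The 2 muscle enzymes differed in level. Pgam2, the muscle phosphoglycerate mutase, stood at 11.54 and 6.41 TPM (170 and 98 counts), while Ckm, the muscle creatine kinase, was the lowest member, at 0.15 and 0.26 TPM (4 and 7 counts). Ckm made up 0.0077% and 0.014% of the summed TPM of Ckm and the brain form Ckb, and Pgam2 2.46% and 1.39% of that of Pgam2 and the widely expressed Pgam1.

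The leading model was the same in both pools for all 16 members that had several transcripts and reached 5 TPM in each pool. The leader was a coding transcript in 15 of them, Neb being the exception. Among members below that level the leader could differ between the pools, as for Tnnt3, Myom1, Myl3 and Myl2. Of Myl1, the shorter coding model Myl1-202 (450 coding bases) held 64.45% and 52.68% of the TPM and Myl1-201 (564 coding bases) 33.09% and 42.17%. These correspond to the alternative start of the gene that gives a short and a long essential light chain. Mef2c was shared by Mef2c-203 (48.45% and 57.56%) and Mef2c-202 (47.85% and 39.1%). Tnnt1-206 led Tnnt1 with only 34.88% and 33.65%, over 13 transcripts. Tnnt2-207 held 82.13% and 62.76% of Tnnt2 and Tnni1-207 held 89.81% and 75.49% of Tnni1. Myh3-202 held 99.97% in replicate 1 and 68.33% in replicate 2, where Myh3-201, with the same coding length of 5820 bases, held 31.65%. Splits between near-identical models are estimates, and no error of these shares was used here.

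Most members were lower in replicate 2 than in replicate 1. Of the 33 members that averaged 1 TPM or more, 31 (93.9%) were lower in any amount, against 41.2% of all 15735 genes at that level, and Chrng and Tnni3 were higher. Over 1.2-fold lower on the log2(TPM + 1) scale were 24 (72.7%), against 7.45% of all genes and 4.82% of protein-coding genes, and Chrng and Tnni3 were over 1.2-fold higher. The deposited TPM interval of replicate 2 lay wholly below that of replicate 1 for 21 of the 33 (63.6%), against 4.19% of all genes, and wholly above for 0. The 1.2-fold limit and the use of these intervals, whose level is not stated, were chosen after the values were seen. The median ratio of the members (log2 of TPM + 1, replicate 2 over replicate 1) was -0.40, against 0.03 for all genes. In bulk RNA, fewer muscle cells and less muscle RNA per cell cannot be told apart, and with 2 pools the difference has no replicate check.

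The shift was present in every sarcomere role and varied in size. The median ratio was -0.31 for the 4 factors above 1 TPM, -0.49 for the 5 embryonic genes, -0.44 for the 6 fast genes, -0.52 for the 8 slow and cardiac genes and -0.39 for the 7 scaffold genes. All members of these lists were lower in replicate 2 except Tnni3. For comparison, the same ratio had an SD of 0.28 among protein-coding genes of 1 to 5 TPM, 0.19 from 5 to 20 TPM, 0.14 from 20 to 100 TPM and 0.10 above that. Most of the members above 1 TPM lay beyond the SD of their level, for example Actc1 (-0.56), Acta1 (-0.46), Tnni1 (-0.57) and Ttn (-0.66). Examples within it were Mef2c (-0.01), Mybpc1 (-0.05), Tcap (-0.06) and Myh3 (-0.16). The share of all genes beyond the SD of their level is not given.

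The ratio of counts per library total has an exact 95% binomial interval, which covers counting error only. It lay wholly below 0 for 30 of the 37 members, included 0 for 7 and lay wholly above 0 for 0. The same share over all genes was not computed. Because genes in general differed between the pools by more than counting noise, these counts do not show how unusual the members are. Myog was at -0.35 (interval -0.48 to -0.22), Myod1 at -0.36 (-0.58 to -0.14) and Myf5 at -1.10 (-1.44 to -0.76). The interval of Myf5 did not meet those of Myog and Myod1, but the pools differ by more than counting noise and the difference between these genes was not tested. Myh7 was at -1.16 (-1.35 to -0.98) and Myh3 at -0.20 (-0.30 to -0.11), intervals that do not meet for the slow and the embryonic heavy chain, with the same limit. Pgam2 was at -0.88 (-1.25 to -0.51). Chrng was at 0.34 with an interval of -0.10 to 0.80, and its higher value in replicate 2 lies within counting error. Its leading transcript Chrng-201 stood at 1.35 and 1.55 TPM, and the shorter Chrng-203 at 0 and 0.90 TPM, from 0 and 11.65 counts.

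Light chain genes shared with the ventricle differed widely between the pools. Myl2 was at -3.57 (-5.25 to -2.26) and Myl3 at -1.88 (-2.89 to -0.96) in log2 counts per library total. The coding transcript Myl2-201 stood at 4.43 TPM in replicate 1 and was listed at 0 in replicate 2, where all 5 counts fell on the non-coding model Myl2-210. Exons of Myl2 and Myl3 overlap Ccdc63 and Pth1r on the opposite strand, and reads of overlapping genes on either strand cannot be told apart here. Of 12 heart genes in a separate list, 3 were detected in both libraries, Casq2 (4.78 and 3.53 TPM), Myl7 (4.20 and 4.54 TPM) and Nppa (4.09 and 2.58 TPM), and the list summed to 15.87 and 11.87 TPM. Its 6 transcription factors were near 0 in both libraries. Gata4 had 13 and 0 counts, Tbx5 6 and 0, Nkx2-5 5 and 1, Tbx20 43 and 20, Hand2 12.97 and 5 and Hand1 6 and 6. The binomial intervals of the count ratio lay below 0 for Gata4, Tbx5 and Tbx20 and included 0 for Nkx2-5, Hand2 and Hand1. A count of 0 allows up to 0.0895 CPM in replicate 2. The thick-filament gene Mybpc3 had 54 and 21 counts. The part of heart RNA in the values of Myl2, Myl3 and Myh7 was not tested. With 9 members that the heart also expresses left out, 23 of 24 members were lower and the median ratio was -0.36. The 9 do not cover every member that the heart expresses. Mef2c and other such members were kept, so the 24 are not free of heart genes, and the part of heart RNA in their ratios was not tested.

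**Figure D3:**
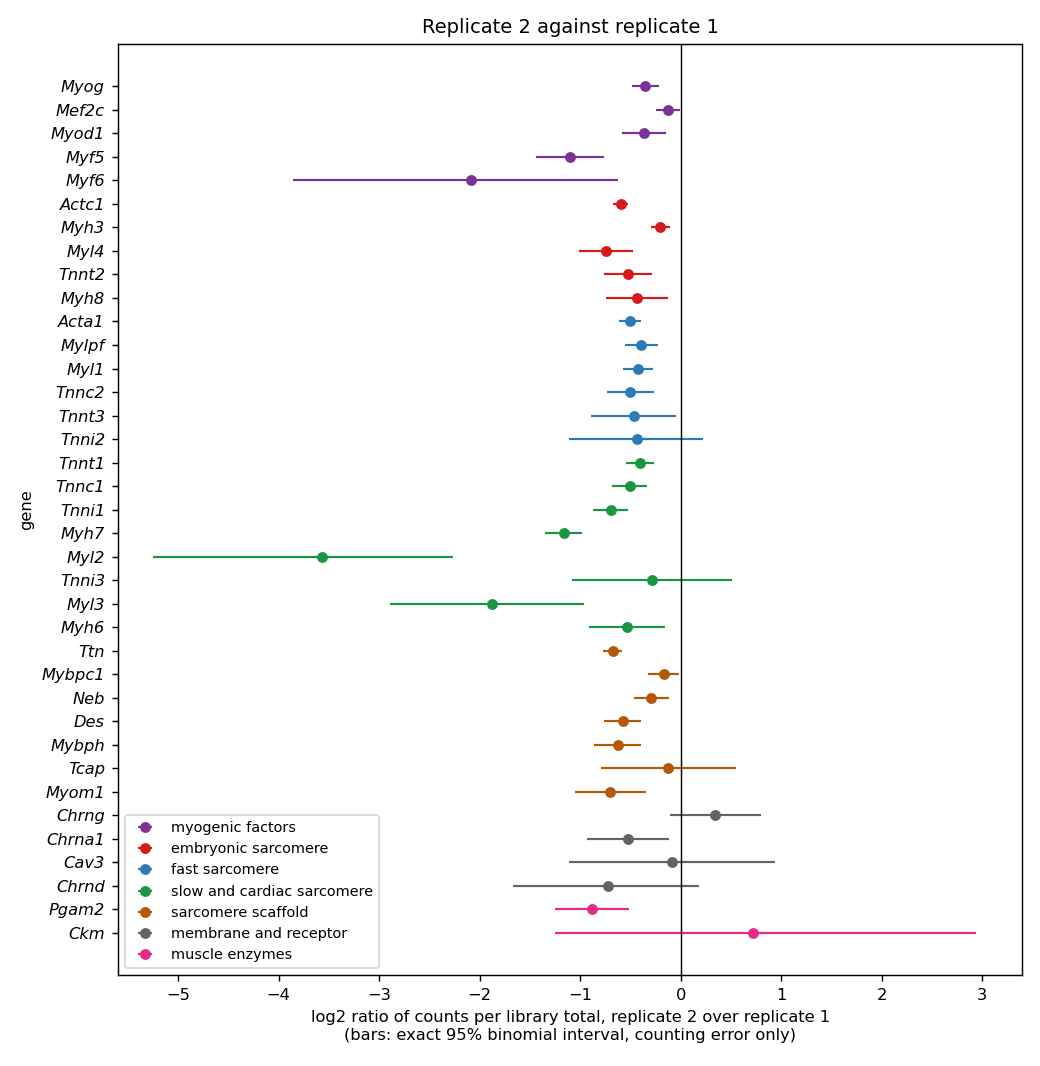
log2 ratio of counts per library total, replicate 2 over replicate 1, for the 37 members in colours by role; bars are exact 95% binomial intervals, which cover counting error only. Points left of the vertical line at 0 are lower in replicate 2: 30 intervals lie wholly left of it, 7 include it, and that of Myl2 reaches farthest left, to -5.25. The same share over all genes was not computed.

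Other muscle genes that are no members were given by a list of 35. Of these, 21 were detected in both libraries, and 17 of the 23 that averaged 1 TPM or more were lower in replicate 2, with a median ratio of -0.11. The highest were Mef2a (25.20 and 23.73 TPM) and Mef2d (14.45 and 16.31 TPM), which are expressed in many tissues, and the Z-disc gene Actn2 (20.58 and 13.44 TPM; ratio -0.58). Of the 35, 12 were under 1 TPM in both libraries, among them the adult heavy chains Myh1, Myh2 and Myh4. Other genes of differentiated fibres were above it, such as the calcium pump gene Atp2a1 (13.59 and 8.46 TPM; ratio -0.63) and the fast alpha-actinin gene Actn3 (2.76 and 2.81 TPM).

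Genes of muscle progenitors were split between the pools. Of 13 listed, 12 were detected in both libraries, 5 of these 12 were lower in replicate 2 and the median ratio was 0.08. Pax3 stood at 36.76 and 37.63 TPM and the transcriptional coactivator gene Eya2 at 19.70 and 30.48 TPM. Several of these genes are also expressed in the neural tube or sensory ganglia, Pax3 and Lbx1 in the dorsal neural tube among them, so their levels are not those of muscle progenitors alone. Tbx6, a gene of the presomitic mesoderm, was under 1 TPM (0.59 and 0.57 TPM).

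Smooth muscle genes were mixed in direction, and in the list of tendon and sclerotome the sclerotome factors were lower in replicate 2. Of 9 smooth muscle genes, 6 were detected, 4 of 6 were lower in replicate 2, with a median ratio of -0.21, and the list summed to 99.72 and 86.9 TPM. It was led by Acta2 (54.62 and 41.04 TPM), Smtn (28.36 and 31.43 TPM) and Tagln (8.76 and 7.36 TPM), while Myh11, Cnn1 and Lmod1 were under 1 TPM in both. Acta2 is also expressed in early skeletal muscle. Of 11 genes of tendon and sclerotome, 9 were detected and 7 of 9 were lower, with a median ratio of -0.23 and a sum of 333.75 and 308.49 TPM. Col2a1 (160 and 151 TPM), Sox9 (102 and 100 TPM) and Col9a1 (32.83 and 25.62 TPM) led it, and Acan and Matn1 stayed under 1 TPM. The sclerotome factors Pax1 (14.54 and 9.21 TPM; ratio -0.61), Pax9 (3.89 and 2.40 TPM; -0.52) and Nkx3-2 (3.26 and 1.74 TPM; -0.64) had ratios below the members' median of -0.40, with deposited intervals apart. The tendon genes Scx (0.19) and Tnmd (0.07) were higher in replicate 2, and the tendon gene Mkx (4.8 and 3.96 TPM; -0.23) was lower. Of the 12 neural tube genes 9 were lower, with a median ratio of -0.08. Among them the motor neuron genes Mnx1 (8.46 and 5.73 TPM; ratio -0.49), Lhx3 (19.96 and 13.92 TPM; -0.49) and Chat (3.34 and 2.36 TPM; -0.37) lay near the members' median, while Isl1, also a gene of sensory neurons, was higher (0.49). Of 9 non-muscle relatives of the members, such as Actb and Myh10, 4 were lower, with a median of 0.01. The part of sclerotome and motor neuron RNA in the members' ratios was not tested.

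**Figure D4:**
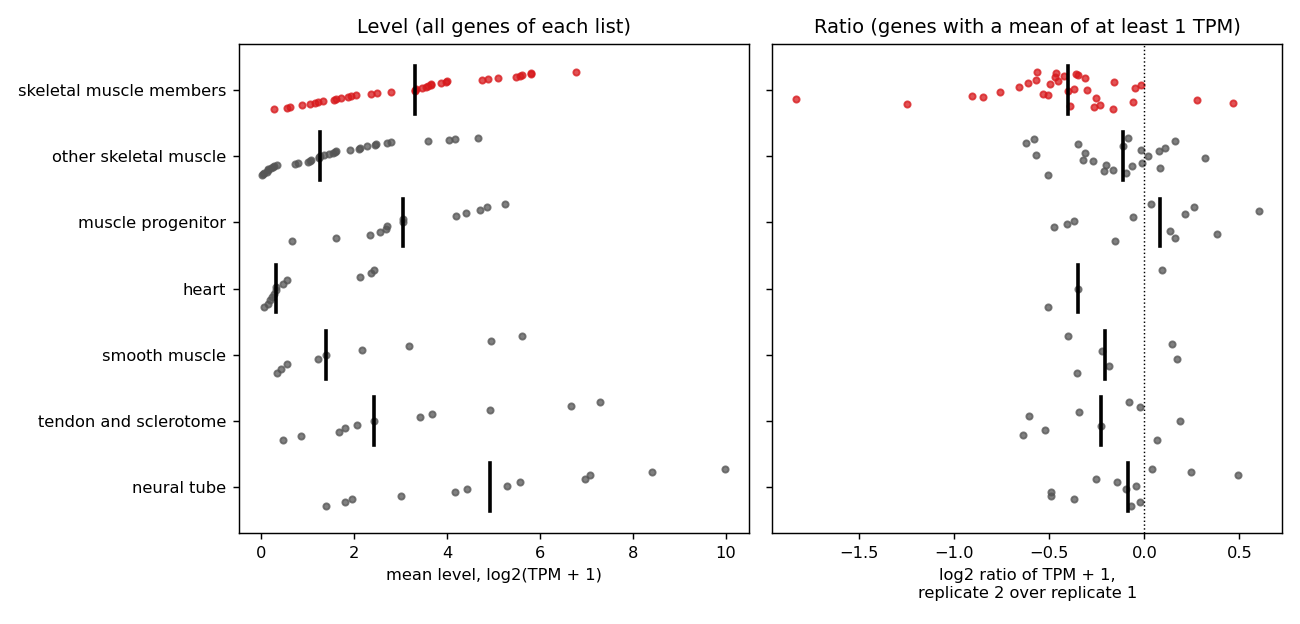
Left, mean level on the log2(TPM + 1) scale of every gene of the 37 members and of 6 other lists; right, ratio of replicate 2 over replicate 1 on the same scale for genes that average 1 TPM or more. Points are genes and thick bars list medians: the members' median ratio is -0.40, that of muscle progenitor genes 0.08 and that of neural tube genes -0.08.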

How the data were processed

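Total RNA of 2 neural tube pools was measured by RNA-seq. Per the deposited read-me text, reads were aligned to mm10 and quantified on the transcriptome with GENCODE M4; the program and the use of strand are not given in the sources used here. The deposited expected count is an estimated number of reads, per the file headers, and the deposited TPM, also given as a posterior mean, is corrected for effective length and depth. The percent of each transcript within its gene and the bounds of the TPM interval, a score of unstated level, are also deposited by the authors, and 4 members in replicate 1 and 3 in replicate 2 had a TPM outside their interval. A later series supersedes this one, per its title, and was not used here.

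Names and 1-based coordinates came from GENCODE M21 on GRCm38, matched by identifier without version (42462 genes). Ratios are on the log2(TPM + 1) scale, which understates differences of low genes. Medians of lists were compared within each library. Exon overlaps with other genes were found for 14 members; reads shared with them cannot be separated. The labels call the pools biological replicates; the mean ± SD is over 2 libraries, and intervals and the floor of 3 counts cover counting error only. Python 3.11.15, scipy 1.17.1, R 4.3.3, edgeR 4.0.16 (TMM) and DESeq2 1.42.0 (size factors) were used on rounded expected counts for the alternatives only, and the ratio script was tested on simulated data. Promoters came from RefSeq.

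The members and lists were chosen with earlier results of these data known. All 37 members are named, of each other list the 3 highest and up to 3 genes under 1 TPM in both libraries, and the leading transcript of members with at least 5 TPM. A gene that this rule takes is not reported here. Further genes and transcripts named (the acetylcholine receptor subunits Chrnb1 and Chrne, the heart genes other than the 3 highest, Atp2a1 and Actn3, the sclerotome, tendon and motor neuron genes beyond those of the rule, and relatives such as Actb and Ckb) were chosen after their values were seen. No batch is given in the labels.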

Additional observations from a re-analysis of the deposited data

How the results depend on the processing

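No paired analysis was possible because both libraries belong to 1 group. The list differences were the results most open to processing. Embryonic minus factors was -0.26 in CPM, 0.95 by means of members, 0.63 with Tnni1 and Tnnc1 counted as embryonic and 0.99 without Mef2c; single libraries gave 0.33 to 0.48. Mature minus factors was 0.52 with posterior means, 0.11 in CPM, 0.63 by means, -0.85 with the 2 genes moved and 0.88 without Mef2c (0.21 to 0.39 in single libraries). Embryonic minus mature was 0.14 with a pseudocount of 0.1, -0.026 with posterior means, -0.37 in CPM, 0.33 by means and 1.48 with the 2 genes moved (0.09 to 0.12). Fast minus slow and cardiac was 3.04, 2.52, 0.72, 1.35 and 3.25 under the same 5 settings in that order (2.63 to 2.94). The cause of these changes was not tested, and CPM favour long transcripts by construction. With posterior means and with counts, the share of Tnnt1 was 71.6% and 69.9%, of Tnni1 77.7% and 88.3%, of Tnnc1 62.7% and 63.5% and of Chrnb1 50.9% and 40.8%. Members detected numbered 34 at 0.5 TPM, 20 at 5 TPM and 33 with posterior means, and 33 in replicate 1 alone and 30 in replicate 2 alone. Of all genes, 15766 were detected in replicate 1 alone and 15681 in replicate 2 alone, and the other settings are not given for all genes. Members lower in replicate 2 were 31 or 32 of 33 under the other scalings, 34 of 37 without a filter on level and 21 of 21 at a mean of at least 5 TPM. Median ratios under these settings ran from -0.38 to -0.51. Protein-coding transcripts alone, an alternative added after the data were seen, gave 32 of 33. The share of all genes lower in replicate 2 also changed with the setting, from 41.2% in the main one. It was 49.97% with TMM and nearly the same with DESeq2 size factors. Without a filter on level it was 25.77%, and at a mean of at least 5 TPM 38.82%. Depth limits most the members with at most 56 counts in either library: Myf6, Ckm, Chrnd, Cav3, Myl2, Myl3, Tnni2, Tnni3 and Tcap.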
